A study of Mus musculus with 8 samples.

Results

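The genes described here encode the Scribble, Par and atypical protein kinase C (aPKC) polarity machinery, measured by RNA sequencing in mouse haematopoietic stem cells. They were chosen by symbol as Scrib, Llgl1, Llgl2, Dlg1, Dlg3, Dlg5, Pard3, Pard6g, Prkci and Prkcz. All 10 were among the 33641 gene symbols of the tables, and 9 were among the 16064 genes expressed highly enough to test. Pard3 reached 1 TPM in 1 library and was not tested.

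The stem cells were sorted from bone marrow of C57BL/6 mice, and they were of 4 genotypes. These were the wild type, Scribble-/- (called Scribble null below), Taz-/-;Yap1-/- (Yap1 Taz null) and a triple null, labelled Scribble-/-;Taz-/-;Yap1-/-. Every group, wild type included, carried Mx1-Cre and had received 6 intraperitoneal injections of 10 mg/kg polyI:C, given on alternate days, and cells were taken 1 week after induction. Mx1-Cre is driven by an interferon-responsive promoter and polyI:C induces interferon, so recombination is not limited to stem cells. Each genotype had 2 libraries, numbered as experiments 1 and 2. Whether these were different animals is not stated by the labels, and if they were not, a p-value reflects technical spread alone. The mice's age was not given in the sources used here. In bulk RNA, fewer cells of a type and less RNA per cell cannot be told apart.

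Cell polarity is set by protein complexes that exclude one another from regions of the cell cortex. Scribble, Lgl and Dlg proteins form the basolateral module, and Par3, Par6 and aPKC form the apical module, in which aPKC, switched on by Cdc42 bound to Par6, phosphorylates Lgl and displaces it from the membrane. In blood stem cells the same proteins are known for roles in Cdc42 polarity and in division, and Scribble also scaffolds regulators of YAP1 and TAZ, the transcriptional co-activators that bind DNA through TEAD factors.

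Promoter sequence is shown for Prkci and Dlg1. In the TPM values given further on, their 6 null libraries all lay above both wild-type libraries, as for 13.1% of all tested genes. Both stretches are the 250 bases upstream of a RefSeq start site on GRCm38.p6 (mm10), plus strand, 5′ to 3′. Capitals mark GGAATG, a core letter string of TEAD binding sites, searched on both strands (CATTCC on the other).
Prkci (chr3:30995521-30995770): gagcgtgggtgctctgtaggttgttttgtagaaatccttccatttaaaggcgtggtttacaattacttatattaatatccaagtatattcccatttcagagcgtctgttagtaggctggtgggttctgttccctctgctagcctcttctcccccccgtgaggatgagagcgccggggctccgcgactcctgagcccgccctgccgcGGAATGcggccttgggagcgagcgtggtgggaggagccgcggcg
Dlg1 (chr16:31663193-31663442): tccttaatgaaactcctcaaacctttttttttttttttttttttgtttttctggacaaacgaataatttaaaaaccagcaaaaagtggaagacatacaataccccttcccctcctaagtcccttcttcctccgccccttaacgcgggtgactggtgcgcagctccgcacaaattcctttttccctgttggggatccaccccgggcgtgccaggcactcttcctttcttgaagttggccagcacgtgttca
In Prkci the first capital lay 44 bases upstream of the start. The Prkci window had 17 CpG and a G and C share of 56.4%. The Dlg1 window shown, at the start of the annotated gene, had 9 CpG and a share of 46%, and the 4 RefSeq windows of Dlg1 ranged over 3 to 20 CpG and 30.8% to 68.8%. The RefSeq table held 14 windows for 7 of the 10 members, and the string was found in 1 of the 14, the Prkci window, against 4153 of 32851 windows in the table (12.6%). These are matches of letters and say nothing of binding.

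The libraries held 14024 to 14970 symbols at 1 TPM or more, where TPM is transcript abundance per length on a fixed total of 1000000 per library, so sequencing depth is unknown. The 13 genes of the stem cell marker list summed to 2168 to 2714 TPM, with Kit, Procr, Hlf and Mecom among the abundant ones. Cd48 and Flt3, which mark more mature progenitors, were low, at means of 2.28 and 8.49 TPM. Ly6a, which encodes Sca-1, was 359 and 417 TPM in wild type against 148 to 255 TPM in the null libraries. Epithelial cells are the best known users of this machinery, and 8 epithelial markers summed to 65.6 to 85.4 TPM, mainly Krt18, while Cdh1 stayed at or under 0.41 TPM and Krt5 was listed at 0. Across all symbols the correlation of log2(TPM + 1) was 0.979 to 0.984 between libraries of 1 genotype and 0.966 to 0.981 between genotypes. Scrib, Yap1 and Wwtr1, the gene of TAZ, are the targeted genes. Where the label names them, in Yap1 Taz null and triple null, Yap1 stood at 2.13, 6.63, 2.25 and 2.37 TPM (wild type 2.00 and 2.15) and Wwtr1 at 1.09, 1.15, 1.92 and 0.775 TPM (wild type 0.730 and 1.19). In Scribble null, where it does not, Yap1 stood at 5.83 and 2.45 TPM and Wwtr1 at 5.32 and 3.91 TPM. In limma the log2 difference of Wwtr1 there was 1.52 and was not called (adjusted p = 0.101). No targeted gene was called lower where its label names it. TPM is summed over a gene and would not show a single lost exon. It is thus no check of the labels, and directions refer to the groups as labelled.

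The 10 genes spanned a wide range of abundance in stem cells, and their order was much the same in every library. Dlg1 was the most abundant in all 8 libraries, at a median of the 85.5th percentile of tested genes, and alone made 42.0% to 53.7% of the summed level of the 10. Dlg3 and Prkci held ranks 2 and 3 in every library, with medians at percentiles 56.1 and 54.0. Llgl2, Scrib and Llgl1 followed at ranks 4 to 6, with medians at percentiles 45.0, 38.6 and 39.2, and they changed places among themselves between libraries. Dlg5, Pard6g and Prkcz held ranks 7 to 9, also in changing order, and Pard3 was last in all 8. The sum over the 10 was 114 and 116 TPM in wild type, 173 and 142 TPM in Scribble null, 135 and 134 TPM in Yap1 Taz null and 152 and 128 TPM in triple null libraries. That sum was higher in all 6 null libraries than in either wild-type library, and in 4 of 6 after scaling by median ratios, where wild type was 126 and 122. On the deposited scale the neighbouring triple null and Scribble null ranges overlapped. Dlg1 and Prkci stood at 79.9 and 44.3 TPM of the 173 TPM in Scribble null 1. Of single tested genes 13.1% had all 6 null libraries above both wild-type ones, and 6.7% after scaling.

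**Figure D1:**
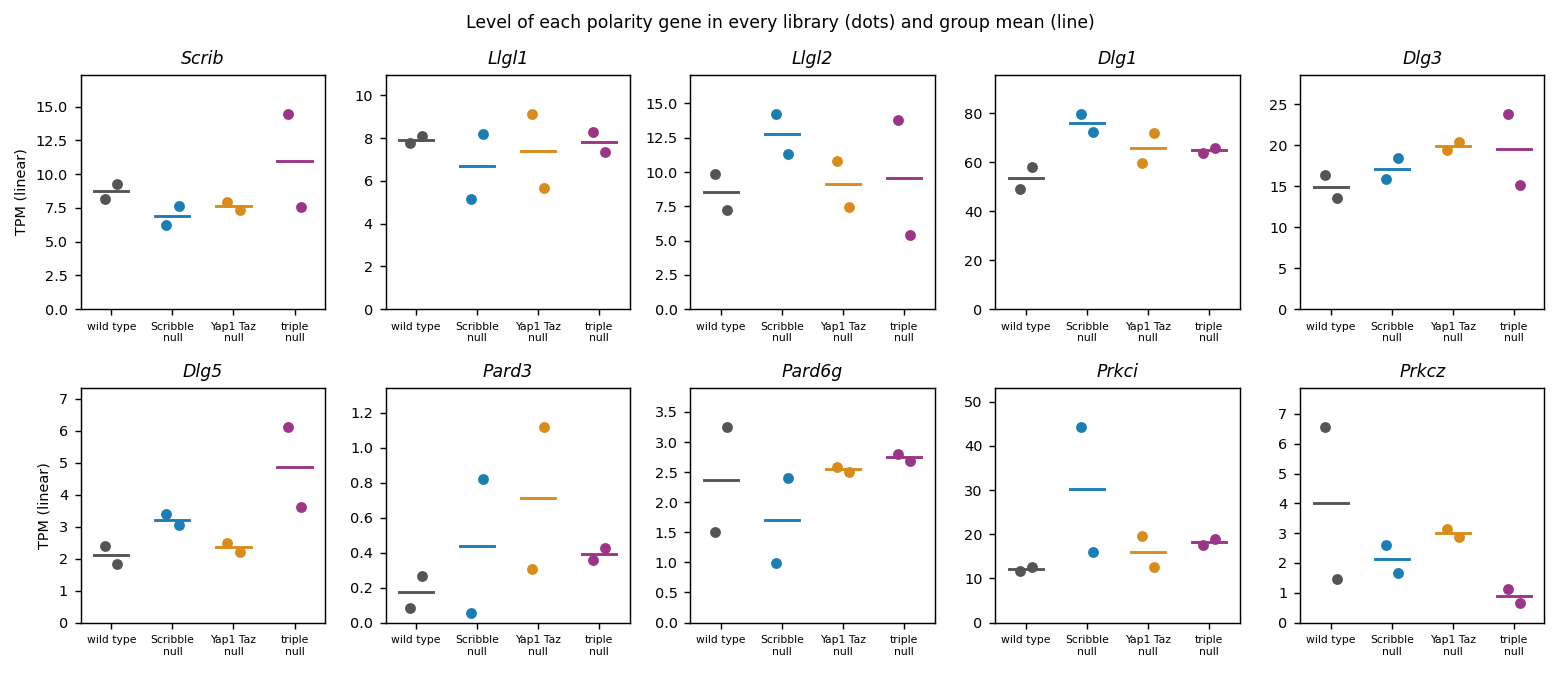
TPM (vertical axis, linear, from 0) of the 10 polarity genes in each library, by genotype, with dots for the 2 libraries and a line for their mean. Prkci stands at 44.3 TPM in 1 Scribble null library and at 16.0 TPM in the other. Dlg1 lies above wild type in all 6 null libraries, as 13.1% of all tested genes do.

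No member was called in any of the 3 comparisons with wild type, by limma with Benjamini-Hochberg adjustment over all tested genes and a threshold of 0.05. In Scribble null against wild type 0 of 9 were called, against 1.3% of all tested genes, and 2 had an unadjusted p under 0.05, where 18.2% of all genes did. The difference was positive for 5 members and negative for 4, with a median log2 difference of 0.19 beside 0.14 over all genes. In Yap1 Taz null 0 of 9 were called against 0.99% of all genes, none had an unadjusted p under 0.05 where 14.3% of all genes did, and 6 differences were positive and 3 negative, with a median of 0.11 beside 0.14. In triple null 0 of 9 were called against 0.579%, 1 had an unadjusted p under 0.05 where 10.9% of all genes did, and 7 were positive and 2 negative, with a median of 0.24 beside 0.12. These 3 comparisons share the wild-type libraries. TPM sets each library to 1 total, and scaling by median ratios lowered the all-gene median by 0.15, 0.15 and 0.12 in the 3 comparisons.

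The 2 × 2 design also allowed each deletion to be read over all 8 libraries. For the label naming Scribble (Scribble null and triple null against wild type and Yap1 Taz null), limma called 0 of 9 members against 0.566% of all genes, and 1, Dlg5, had an unadjusted p under 0.05, where 12.5% of all genes did. For the label naming Yap1 and Taz it called 0 of 9 against 0.454%, with none at an unadjusted p under 0.05, where 9.32% of all genes were. For the departure from additivity (the triple null difference less the sum of the other null differences) it called 0 of 9 against 0.635%, again with none at an unadjusted p under 0.05, where 14.5% of all genes were. The members' median log2 values were 0.06, 0.05 and −0.25, beside 0.06, 0.06 and −0.15 over all genes.

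**Figure D2:**
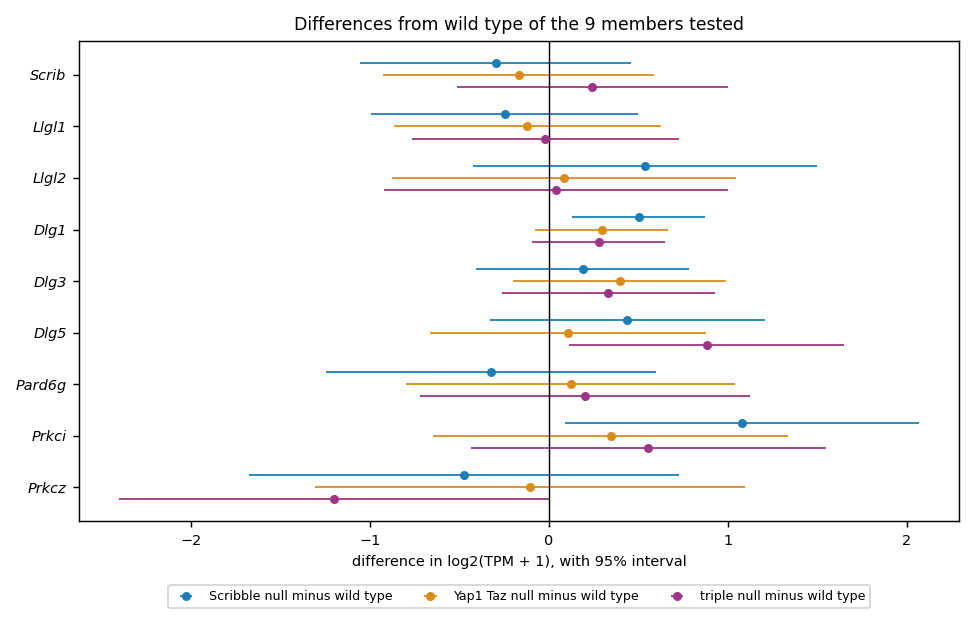
Difference from wild type in log2(TPM + 1) (horizontal axis) of the 9 members tested, for the 3 null genotypes, with dots for the estimate and bars for the 95% interval of limma. Only Dlg1 and Prkci in Scribble null and Dlg5 in triple null have intervals that leave out 0, before adjustment for the number of genes.

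Scrib encodes the scaffold of the basolateral module, a leucine-rich repeat and PDZ protein, and is the gene named in the Scribble and triple null labels. The gene lies on mm10 chromosome 15, 76047158 to 76069784, minus strand, with up to 38 exons. It was 8.19 and 9.29 TPM in wild type, 6.25 and 7.63 TPM in Scribble null, 7.98 and 7.32 TPM in Yap1 Taz null and 14.5 and 7.54 TPM in triple null libraries. Both Scribble null libraries lay below both wild-type ones, and so did both Yap1 Taz null libraries, a pattern shown by 15.7% and 14.5% of all tested genes in those comparisons. In the second deposited table of the series both groups overlapped wild type, at 5.82 and 6.84 in Scribble null and 7.04 and 6.64 in Yap1 Taz null against 6.45 and 8.07. The triple null libraries lay on both sides of wild type, with triple null 1 the highest of all 8.

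The log2 difference of Scrib from wild type was −0.30 in Scribble null (95% interval −1.06 to 0.46, adjusted p = 0.669), −0.17 in Yap1 Taz null (−0.93 to 0.59, adjusted p = 0.843) and 0.24 in triple null (−0.52 to 1.00, adjusted p = 0.828). The intervals hold both a loss and a gain in each genotype. Split by whether the label names Scribble, the 4 and 4 libraries differed by 0.057 on the log2 scale, and a two-sided exact permutation test gave p = 0.943. Without triple null 1 the same split gave −0.18, with an exact permutation p of 0.143, so the sign of the pooled value rested on that library.

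Llgl1 and Llgl2 encode the mammalian Lgl proteins, which aPKC phosphorylates. Llgl1 (chromosome 11, 60699723 to 60714186) was 7.78 and 8.09 TPM in wild type, 5.17 and 8.18 TPM in Scribble null, 9.15 and 5.66 TPM in Yap1 Taz null and 8.28 and 7.36 TPM in triple null libraries. Its groups overlapped in all 3 comparisons, with log2 differences from wild type of −0.25, −0.12 and −0.02 and adjusted p values of 0.723, 0.890 and 0.992 in that order. An exon of Llgl1 overlaps Flii on the opposite strand, and the counting was not stated to use strand, so reads there cannot be told apart.

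Llgl2 (chromosome 11, 115824049 to 115855780) stood at 9.88 and 7.21 TPM in wild type. In Scribble null it stood at 14.3 and 11.3 TPM, and both values lay above both wild-type ones, as they did for 33.2% of all tested genes. The log2 difference was 0.54 (95% interval −0.42 to 1.50, adjusted p = 0.534). In Yap1 Taz null it was 10.8 and 7.48 TPM and in triple null 13.8 and 5.39 TPM, both overlapping wild type, with log2 differences of 0.08 and 0.04. The triple null libraries spanned nearly the whole range of the gene over the 8 libraries.

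Dlg genes encode membrane-associated guanylate kinase scaffolds that work with Scribble and Lgl. Dlg1 (chromosome 16, 31663443 to 31875129, plus strand, up to 27 exons) was 49.2 and 58.0 TPM in wild type, 79.9 and 72.4 TPM in Scribble null, 59.9 and 72.1 TPM in Yap1 Taz null and 64.0 and 66.0 TPM in triple null libraries. All 6 null libraries lay above both wild-type libraries, the lowest of them at 59.9 TPM against 58.0 TPM. Of all tested genes 13.1% had that pattern, and after median-ratio scaling Dlg1 kept 5 of the 6 above. Scribble null averaged 76.1 ± 5.28 TPM against 53.6 ± 6.22 TPM in wild type (SD, n = 2). In limma the log2 difference was 0.50 (SE 0.16, 95% interval 0.13 to 0.87, adjusted p = 0.170) in Scribble null, 0.29 (−0.08 to 0.67, adjusted p = 0.455) in Yap1 Taz null and 0.28 (−0.10 to 0.65, adjusted p = 0.574) in triple null. The departure from additivity was −0.52 (−1.05 to 0.01, adjusted p = 0.351).

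Dlg3 (chromosome X, 100767722 to 100818410) was 16.3 and 13.6 TPM in wild type, 15.9 and 18.4 TPM in Scribble null, 19.4 and 20.5 TPM in Yap1 Taz null and 23.9 and 15.1 TPM in triple null libraries. Only its Yap1 Taz null libraries were both above both wild-type ones, as 32.0% of all tested genes were, with a log2 difference of 0.40 (95% interval −0.20 to 0.99, adjusted p = 0.524). The log2 differences in Scribble null and triple null were 0.19 and 0.33, with adjusted p values of 0.737 and 0.672.

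Dlg5 (chromosome 14, 24133953 to 24245920), a more distant relative of the other Dlg genes, was low, with 2.40 and 1.85 TPM in wild type against 2.49 and 2.21 TPM in Yap1 Taz null libraries. It was 3.38 and 3.05 TPM in Scribble null and 6.12 and 3.62 TPM in triple null libraries, so the 4 libraries whose labels name Scribble all lay above the other 4. Of all tested genes 3.6% had that pattern, and 1 of 9 members did. In limma the log2 difference for the Scribble label was 0.61 (SE 0.24, 95% interval 0.06 to 1.15, adjusted p = 0.354). In triple null against wild type it was 0.88 (0.11 to 1.65, adjusted p = 0.392), and in Scribble null 0.44 (−0.33 to 1.21, adjusted p = 0.527). Without triple null 1 the difference from wild type in triple null was 0.57, so that library set much of its size. The same 4 libraries also lay above the others after median-ratio scaling and in the second deposited table of the series. Part of Dlg5 overlaps the gene model Gm49098 on the same strand.

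Par3 and Par6 are the scaffolds that hold aPKC in the apical module. Pard3 (chromosome 8, 127063893 to 127612286) was 0.0860 and 0.267 TPM in wild type, 0.0543 and 0.820 TPM in Scribble null, 0.308 and 1.12 TPM in Yap1 Taz null and 0.356 and 0.425 TPM in triple null libraries. Its highest value was in Yap1 Taz null 2 and its lowest in Scribble null 1. At this level TPM carries little precision, and the gene was described and not tested.

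Pard6g (chromosome 18, 80046890 to 80119639), one of the Par6 genes, was 1.50 and 3.25 TPM in wild type, 0.994 and 2.40 TPM in Scribble null, 2.59 and 2.50 TPM in Yap1 Taz null and 2.81 and 2.69 TPM in triple null libraries. The wild-type libraries enclosed both libraries of the Yap1 Taz null and triple null groups. The log2 differences from wild type were −0.32, 0.12 and 0.20 for Scribble null, Yap1 Taz null and triple null, with adjusted p values of 0.705, 0.913 and 0.893.

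Prkci and Prkcz encode the aPKC isoforms iota and zeta, the kinases of the module. Prkci (chromosome 3, 30995747 to 31052959, up to 18 exons) was 11.7 and 12.497 TPM in wild type, 44.3 and 16.0 TPM in Scribble null, 19.5 and 12.518 TPM in Yap1 Taz null and 17.5 and 19.0 TPM in triple null libraries. All 6 null libraries lay above both wild-type ones, in 1 case by the margin between 12.518 and 12.497 TPM. Of all tested genes 13.1% had that pattern, and after median-ratio scaling Prkci kept 5 of the 6 above. In limma the log2 difference was 1.08 (SE 0.43, 95% interval 0.09 to 2.07, adjusted p = 0.239) in Scribble null, 0.34 (−0.65 to 1.34, adjusted p = 0.747) in Yap1 Taz null and 0.56 (−0.44 to 1.55, adjusted p = 0.671) in triple null.

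Stretches of Prkci are shared with Cndp1, Dleu2, Gm47701 and Spata31d1a, so some reads may be uncertain. The Scribble null value of Prkci rested on 1 library. Without Scribble null 1 the log2 difference was 0.37 (adjusted p = 0.655), and without Scribble null 2 it was 1.79 with an adjusted p of 0.0492 in limma, the lone library then being assumed to vary like the other groups. That was the only alternative in which a member was called. Summed levels of markers of other cell types also differed between these groups. The summed level of 9 T and NK cell markers was 64.8 TPM in Scribble null 1 and 44.2 TPM in Scribble null 2, against 22.5 and 23.7 TPM in wild type and 29.3 to 34.6 TPM in the other null libraries. The difference was mainly Klrb1c, at 30.9 and 15.0 TPM, while 4 of the 9 had a mean under 1 TPM, including Cd3e and Cd3g, and Ncr1 was listed at 0. The summed level of 9 erythroid and megakaryocyte markers was 1123 and 1220 TPM in wild type against 335 to 539 TPM in the null libraries. The difference was mainly Pf4, while Hba-a1 had a mean under 1 TPM. Itga2b was 127 and 134 TPM in wild type against 100 to 156 TPM in the null libraries. Gp9 was 122 and 105 TPM against 92.8 to 153 TPM, so both overlapped. The sums of 7 endothelial markers were 108 and 116 TPM in wild type against 132 to 161 TPM in the null libraries, mainly Vwf, Pecam1 and Emcn, with Cdh5, Plvap and Stab2 at means under 1 TPM. The epithelial sums were 65.6 and 67.7 TPM against 73.9 to 85.4 TPM, mainly Krt18, at 62.0 and 62.1 TPM against 67.9 to 81.1 TPM. Krt8 went the other way, at 3.09 and 2.15 TPM in wild type against 0.300 to 1.05 TPM in the null libraries. The part of these markers in the values of Prkci and Dlg1 was not tested.

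Prkcz (chromosome 4, 155260129 to 155361361, minus strand) was 6.56 and 1.46 TPM in wild type, 2.61 and 1.67 TPM in Scribble null, 3.14 and 2.86 TPM in Yap1 Taz null and 1.14 and 0.644 TPM in triple null libraries. The triple null libraries were the 2 lowest of the 8, below both wild-type ones, as for 14.2% of all tested genes, and wild type 1 was the highest. In limma the log2 difference in triple null was −1.20 (SE 0.52, 95% interval −2.40 to 0.00, adjusted p = 0.458), while it was −0.39 without wild type 1 and −2.01 without wild type 2. In Scribble null and Yap1 Taz null it was −0.48 and −0.11, with adjusted p values of 0.667 and 0.944. A stretch of Prkcz is shared with Prkcz2, so its reads may have been divided between them.

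The pattern of 6 null libraries above both wild-type ones held for 2 of 9 members, Dlg1 and Prkci, and for 13.1% of all tested genes. The reverse pattern held for 0 of 9 members and 4.87% of all genes. After median-ratio scaling Dlg1 and Prkci each kept 5 of the 6 libraries above wild type, and all-gene shares were 6.7% above and 9.41% below. In the second deposited table the number above was 5 for Dlg1 and 6 for Prkci, with 14.6% of all genes showing the full pattern.

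Each member is 1 of several paralogs, and TPM per length allows their levels to be set beside each other. Among the Dlg genes, Dlg4 and Dlg1 were the main sources, with 39.6% to 54.1% and 31.4% to 43.6% of the family's summed TPM, and Dlg5 held 1.01% to 3.08%. The 6 null libraries had family sums of 164 to 220 TPM, all above the wild-type sums of 132 and 142 TPM. Dlg4, on the partner list below, ranged over 71.0 to 114 TPM in null libraries against 55.8 and 60.3 TPM in wild type, and Dlg2 over 11.0 to 16.8 TPM against 8.11 and 8.09 TPM. Both lay above wild type in all 6 null libraries also after scaling and in the second table. Of all tested genes 13.1% had that pattern in TPM, 6.7% after scaling and 14.6% in the second table. Neither Dlg4 nor Dlg2 was called by limma, with Dlg4 in triple null at a log2 difference of 0.78 (SE 0.24, adjusted p = 0.292).

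Llgl1 and Llgl2 were present at like levels, Llgl1 holding 26.6% to 57.7% of their sum. The lowest share was in Scribble null 1 and the highest in triple null 2. Of the aPKC pair Prkci held 64.1% in wild type 1 and 81.4% to 96.7% in the other 7 libraries, and its level was 1.79 to 29.5 times that of Prkcz, with a median of 9.07. Pard3 held 0.228% to 4.24% of its sum with Pard3b, its paralog, so nearly all Par3-family RNA in these libraries was Pard3b.

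Pard6g held 2.95% to 18.5% of the Par6 family, whose sum ranged over 13.98 to 22.3 TPM in the null libraries, below the 50.8 and 25.5 TPM of wild type. The difference lay in Pard6a, at 37.5 and 15.0 TPM in wild type against 4.20 to 10.6 TPM in the 6 null libraries. All 6 lay below both wild-type ones, as for 4.87% of all tested genes. The log2 difference of Pard6a was −1.66 in Scribble null, −2.25 in Yap1 Taz null and −1.57 in triple null, with adjusted p values of 0.133, 0.0940 and 0.280. In the second deposited table Pard6a stood at 5.68 and 4.43 in wild type against 1.68 to 4.51 in null libraries, so the 2 tables differ in its level. The Par6 sum there was 16.3 and 13.8 in wild type against 11.1 to 17.4 in null libraries, and the groups overlapped.

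**Figure D3:**
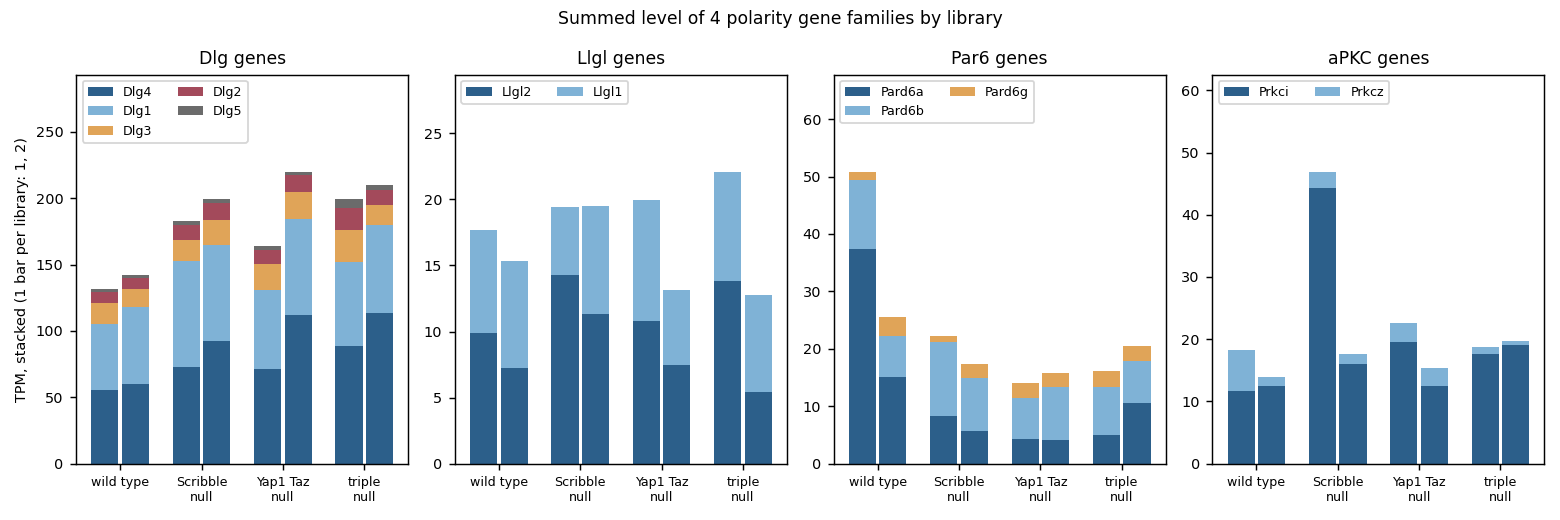
Stacked TPM (vertical axis, from 0) of the Dlg, Llgl, Par6 and aPKC genes, 1 bar per library in genotype order, with colours for the genes. The Dlg sum is 132 and 142 TPM in wild type and 164 or more in null libraries, and Prkci makes most of the aPKC level in every library.

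The wider polarity network was covered by 6 lists of 91 genes, of which 79 were tested. The tested genes were 16 Scribble and Dlg paralogs and partners, 15 Par and aPKC partners, 12 of the Crumbs complex, 15 Par-1, Par-4 and 14-3-3 genes, 11 planar polarity genes and 10 other protein kinase C genes. In Scribble null against wild type 1 of 79 rose and none fell, beside 1.3% of all genes in either direction. The median log2 difference was 0.19 beside 0.14. An unadjusted p under 0.05 in limma was found for 14 of 79, where 18.2% of all genes had it. In Yap1 Taz null and in triple null 0 of 79 were called by limma, beside 0.99% and 0.579% of all genes. At an unadjusted p under 0.05 were 12 and 11 of 79, where 14.3% and 10.9% of all genes were, with medians of 0.09 and 0.14 beside 0.14 and 0.12 over all genes. By label, limma called 1 of 79, which rose, with the Scribble label, beside 0.566% of all genes. It called 0 of 79 with the Yap1 and Taz label, beside 0.454%, and 0 of 79 in the departure from additivity, beside 0.635%. In each of the latter 2 comparisons 10 of 79 had an unadjusted p under 0.05, where 9.32% and 14.5% of all genes did. For the Scribble label 6 of 79 did, where 12.5% of all genes did.

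The gene that rose in Scribble null was Fzd6, a Frizzled receptor of planar polarity and 1 of 11 tested planar polarity genes. Fzd6 (chromosome 15, 39006034 to 39038188) was 3.45 and 4.70 TPM in wild type, 18.3 and 13.6 TPM in Scribble null, 11.5 and 10.6 TPM in Yap1 Taz null and 12.1 and 10.6 TPM in triple null libraries. The log2 difference in Scribble null was 1.74 (SE 0.27, adjusted p = 0.0308), and in Yap1 Taz null and triple null it was 1.26 and 1.29 (adjusted p = 0.0994 and 0.119). In the second deposited table the Scribble null difference was 0.32 with an adjusted p of 0.866, from values of 0.527 and 0.0679 against 3.29e-07 and 0.0510 in wild type, and the 2 tables differ in the level of the gene. The call was also lost without any 1 of 7 of the 8 libraries, at adjusted p values of 0.0588 to 0.219, and with only the groups compared, at 0.137. The difference itself stayed at 1.54 to 1.94 with each library left out. An exon of Fzd6 overlaps the gene model Gm26704 on the opposite strand.

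The gene that rose with the Scribble label was Lrrc1, which encodes Lano, a leucine-rich repeat protein related to Scribble that lacks its PDZ domains. Lrrc1 (chromosome 9, 77430823 to 77544870) was 20.7 and 21.2 TPM in wild type, 31.2 and 37.5 TPM in Scribble null, 16.9 and 19.8 TPM in Yap1 Taz null and 37.6 and 43.5 TPM in triple null libraries. The 4 libraries whose labels name Scribble lay above the other 4, and the log2 difference was 0.89 (SE 0.14, adjusted p = 0.0397). Against wild type alone it was 0.68 in Scribble null and 0.92 in triple null, with adjusted p values of 0.131 and 0.120. The label difference was 0.35 in the second table (adjusted p = 0.514), where the 4 libraries overlapped the others, and leaving out any 1 library gave 0.83 to 0.95 with adjusted p values of 0.0813 to 0.181. Of all 79 network genes 4 had this library pattern, beside 3.6% of all genes. On the Scribble and Dlg partner list 2 of 16 had it, Lrrc1 and Lpp, and neither kept it in the second table.

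No other network gene was called, and the following had the smallest p of their list in a comparison with wild type. Pard3b, the Par3 paralog, stood at 17.5 to 28.2 TPM in the 6 null libraries against 8.07 and 12.5 TPM in wild type, with a log2 difference of 1.36 in Yap1 Taz null (SE 0.25, adjusted p = 0.0627). Tjp1, the tight junction scaffold ZO-1, was 10.2 and 13.1 TPM in wild type, 16.1 and 13.6 TPM in Scribble null, 2.76 and 4.52 TPM in Yap1 Taz null and 6.79 and 6.69 TPM in triple null libraries, below wild type wherever the label names Yap1 and Taz. Its log2 difference was −1.46 in Yap1 Taz null (adjusted p = 0.0831) and −1.25 for the Yap1 and Taz label (adjusted p = 0.0628).

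In the Crumbs complex list, Epb41l4b, a FERM domain protein, was 50.5 to 79.6 TPM in wild type and Scribble null. It was 30.1 to 41.9 TPM in the 4 libraries whose labels name Yap1 and Taz. The log2 difference for that label was −0.87 in limma (adjusted p = 0.0735). Yap1 Taz null and triple null libraries each lay below wild type for 14.5% and 14.2% of all tested genes. The share of genes with the full split by that label was not computed. Mpp7, a Dlg-binding scaffold, stood at 11.8 to 13.9 TPM in null libraries against 7.13 and 8.45 TPM in wild type, with log2 differences of 0.58, 0.70 and 0.67 and adjusted p values of 0.230, 0.230 and 0.341. Ywhag, a 14-3-3 gene, stood at 91.1 to 109 TPM in null libraries against 142 and 115 TPM in wild type. Of the other protein kinase C genes, Prkcb stood at 5.22 to 11.5 TPM against 3.30 and 3.58 TPM. The most abundant gene of each list was Ywhaz at a mean of 781 TPM, Cdc42 at 197, Git2 at 117, Prkcd at 62.1, Lin7c at 61.6 and Dvl3 at 29.4 TPM. Of the 79 network genes, 14 had all 6 null libraries above both wild-type ones, beside 13.1% of all genes, and 2, Pard6a and Ywhag, had all 6 below, beside 4.87%. After median-ratio scaling Arhgef7, Lpp, Trip6, Amotl2, Cab39l and Ywhaz no longer had all 6 above, where 6.7% of all genes did. Wwc2 and Ywhaq then joined Pard6a and Ywhag with all 6 below, where 9.41% of all genes did.

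**Figure D4:**
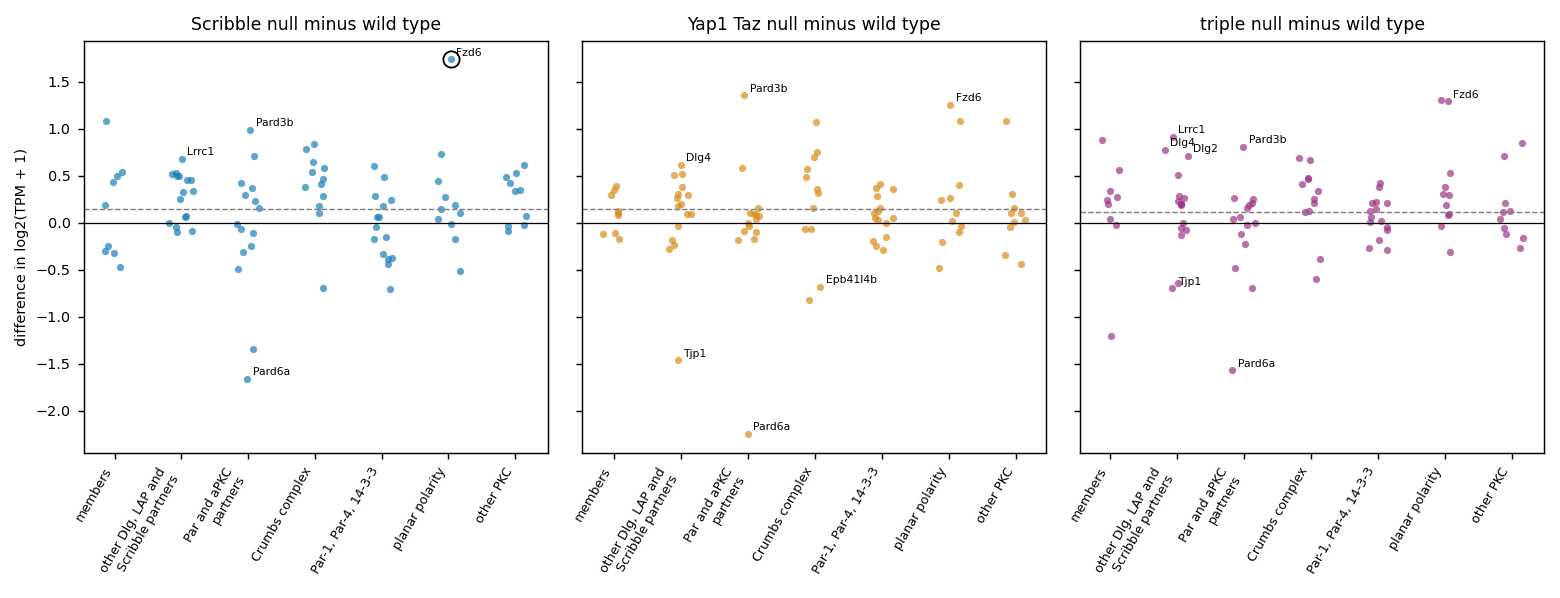
Difference from wild type in log2(TPM + 1) (vertical axis) of the 9 members and the 79 tested network genes by list, 1 dot per gene, in 1 panel per null genotype. The dashed line is the median of all tested genes, the circle marks the only called gene, Fzd6 at 1.74 in Scribble null, and the members lie between −1.20 and 1.08.

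The genes whose level followed that of Scrib most closely over the 8 libraries were taken from 7711 genes with a mean of at least 5 TPM and an SD of at least 0.2 on the log2 scale. They were St3gal4, a sialyltransferase, at a Pearson r of 0.941, then Phlpp1, Zfp446, Natd1 and Mast2 at 0.909 to 0.902. Phlpp1 encodes a phosphatase of the kinase AKT. The genes most opposite were Ccdc78, Hook2 and Acadvl, at −0.943 to −0.922. These are descriptions over 8 libraries of 4 genotypes and have no p. The likeness leaned on triple null 1, which held the highest Scrib. Without that library r was 0.741 for St3gal4, 0.672 for Phlpp1, 0.385 for Zfp446, 0.848 for Natd1 and 0.844 for Mast2. Of the opposite genes, Ccdc78 was then at −0.779, Hook2 at −0.893 and Acadvl at −0.591.

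The second deposited table gave the members at nearly the same relative levels. The ratio of its value to TPM had a median of 0.838 to 0.912 over the 8 libraries for 9 of the 10 genes, the exception being Prkcz, at 1.18 with a range of 1.01 to 1.81. Pard3 had the widest range, at 0.587 to 2.59. In that table Prkcz was 6.71 and 2.04 in wild type, 4.15 and 1.96 in Scribble null, 3.73 and 5.18 in Yap1 Taz null and 1.15 and 0.716 in triple null libraries, so the triple null libraries were again the 2 lowest. No other annotated transcript matched any of the 10 at 95% identity over 80% of its length.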

How the data were processed

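Per the labels' protocols, stem cell RNA was amplified (Ovation RNA-Seq v2) and tagmented with Nextera XT. The authors deposited TPM per gene symbol for each of the 8 libraries, per the file headers. They also deposited a series-wide table of 28987 identifiers, a linear signal whose unit its header does not name, of which 94.7% matched a symbol. The submitters' processing notes name TopHat and mm10, while how reads were counted or filtered was not given in the sources used here. Because TPM keeps no depth, the counting precision of a value is unknown.

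The test was limma 3.58.1 (R 4.3.3) on log2(TPM + 1), with a variance trend, 1 mean for each of 4 groups, and genes at 1 TPM or more in at least 2 libraries. This scale understates changes of low genes. Benjamini-Hochberg adjustment ran over 16064 genes, and genes under 0.05 were called. Annotation was GENCODE M21 on GRCm38 (mm10), copies were sought with BLAST 2.17.0, and promoter sequence is from RefSeq on GRCm38.p6. The members and gene lists were chosen with earlier results of these data known. Named were all members, the targeted genes, and of each list the called genes, the smallest p in each comparison with wild type and the most abundant gene, and for Scrib the 5 most and 3 least alike named genes. Other genes named, such as paralogs, markers and those with a library pattern, were chosen after their values were seen. A gene that the rule names is not reported here. Alternatives were a pseudocount of 0.1, no filter, median-ratio scaling, the series-wide table, a replicate block, only the groups compared and leaving out each library. Library patterns and summed levels after scaling and in the series-wide table were added after seeing the data.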

Additional observations from a re-analysis of the deposited data

How the results depend on the processing

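No member was called under any alternative except Prkci in Scribble null against wild type, where the count of 0 became 1 without Scribble null 2. Of the members' recomputed differences 683 kept their sign and their side of the threshold and 45 changed sign, none of these called. The genes called in Scribble null against wild type numbered 209, 127 without the filter, 100 in the series-wide table, 63 with only the groups compared and 46 to 227 with each library left out. For Yap1 Taz null they numbered 159, 91 with only the groups compared and 52 to 136 with a library left out, and for triple null 93, with 36 to 88. For the Scribble label they numbered 91, 46 in the series-wide table and 27 to 96 with a library left out, for the Yap1 and Taz label 73, with 33 to 74, and for the departure from additivity 102, with 45 to 138. The lowest count in each comparison was without wild type 1, and the cause of these shifts other than fewer samples or genes was not tested.

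Median-ratio scaling moved the split of called genes from 95 higher and 114 lower to 60 and 218 in Scribble null, from 76 and 83 to 36 and 96 in Yap1 Taz null, from 36 and 57 to 25 and 67 in triple null, from 32 and 41 to 26 and 51 for the Yap1 and Taz label, and from 60 and 42 to 67 and 24 for the departure. It turned the split of Scrib by label from 0.057 to −0.00585, and leaving out a library gave −0.18 to 0.19.

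Same-numbered experiments did not deviate together, with correlations of −0.053 to 0.026 between groups, so the numbers were not taken as pairs. With the replicate block 110 genes were called in Scribble null and 55 for the Scribble label, no member was called, and Fzd6 and Lrrc1 lost their calls, at adjusted p values of 0.0576 and 0.0604. Without the filter those were 0.0642 and 0.0671. With 2 libraries a group and unknown depth, small differences of low members such as Dlg5, Pard6g and Prkcz could not be resolved.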
